A study of Homo sapiens with 4 samples.

Results

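The aryl hydrocarbon receptor battery is described here as 8 genes, which were found by symbol as 8 of the 30863 rows of the deposited expression table. The rule names them by symbol and known role. They are the receptor gene AHR, the gene of its partner ARNT, the feedback inhibitors AHRR and TIPARP, and the enzymes CYP1A1, CYP1A2, CYP1B1 and ALDH3A1. The samples are HepG2 cells, an established human liver cancer line labelled as hepatoblastoma and wild type, which were kept for 48 h with AMF or with the solvent DMSO before their poly(A) RNA was sequenced. By the series title AMF is amentoflavone, a plant biflavonoid, but the labels disagree on the agent: the treatment protocol gives AMF at 90 µM, whereas the design text gives an agent called Tub B at 80 µM. The compound and dose of the treated group are therefore uncertain. Each group holds 2 libraries, AMF replicates 1 and 2 and DMSO replicates 1 and 2, and nothing in the labels says that they came from separate cultures, so the spread behind every p-value may be technical.

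The receptor waits in the cytoplasm in a complex with HSP90 and the co-chaperone p23. When a planar aromatic ligand binds, it moves to the nucleus, pairs with ARNT and binds DNA at xenobiotic response elements, whose core reads GCGTG. In liver cells its best known targets are the family 1 cytochromes P450, which oxidise aromatic compounds, and it also drives AHRR and TIPARP, which limit its own action. Flavonoids are among the plant compounds known to bind this receptor as activators or as blockers.

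RefSeq promoter windows on GRCh38.p14, each with 250 bases before and 50 after an annotated start, were at hand for 6 of the 8 genes and came to 9 windows, since AHRR and TIPARP have several starts. CYP1B1 and ALDH3A1 had no window and were not searched. The windows below belong to the P450 pair and to the feedback genes, whose changes the results turn on. Each runs 5′ to 3′ on the gene's own strand, and capitals mark the core GCGTG or its complement CACGC, and the TATA sequence TATAAA or its complement TTTATA.
CYP1A1, chr15:74725479-74725778, minus strand: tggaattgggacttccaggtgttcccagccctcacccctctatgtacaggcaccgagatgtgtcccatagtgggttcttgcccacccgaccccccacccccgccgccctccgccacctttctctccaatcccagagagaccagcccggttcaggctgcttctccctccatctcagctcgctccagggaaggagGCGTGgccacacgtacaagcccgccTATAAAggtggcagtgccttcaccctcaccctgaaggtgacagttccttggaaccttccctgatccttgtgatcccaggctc
CYP1A2, chr15:74748595-74748894, plus strand: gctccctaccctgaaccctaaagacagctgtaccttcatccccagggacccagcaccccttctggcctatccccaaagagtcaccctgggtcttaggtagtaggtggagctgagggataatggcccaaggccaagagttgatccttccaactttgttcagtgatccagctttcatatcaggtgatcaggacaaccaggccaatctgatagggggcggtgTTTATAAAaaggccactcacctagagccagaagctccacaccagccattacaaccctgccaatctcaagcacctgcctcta
AHRR, chr5:321464-321763, plus strand: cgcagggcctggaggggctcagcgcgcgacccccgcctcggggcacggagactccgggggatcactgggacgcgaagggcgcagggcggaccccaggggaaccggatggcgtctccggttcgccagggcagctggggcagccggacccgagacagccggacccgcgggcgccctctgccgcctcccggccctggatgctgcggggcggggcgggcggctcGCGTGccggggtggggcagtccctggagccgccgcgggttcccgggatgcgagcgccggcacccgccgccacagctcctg
TIPARP, chr3:156674340-156674639, plus strand: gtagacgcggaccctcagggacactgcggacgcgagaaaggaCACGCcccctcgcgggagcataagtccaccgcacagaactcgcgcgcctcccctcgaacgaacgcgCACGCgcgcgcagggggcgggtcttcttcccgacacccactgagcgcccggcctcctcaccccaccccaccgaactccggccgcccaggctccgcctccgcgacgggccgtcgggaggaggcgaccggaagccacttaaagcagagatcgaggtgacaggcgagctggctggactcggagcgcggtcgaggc
The core, searched on both strands, stood in 5 of the 9 windows. It was at position -57 from the start in CYP1A1, at -30 in AHRR, at -208 and -142 in TIPARP, at 37 in AHR and at -247 and -42 in the second AHRR window, whereas the windows of CYP1A2 and ARNT and the other TIPARP windows had no match. The longer form TNGCGTG was found in 1 window, that of AHRR shown above. Of 35116 windows of the same length, 36.5% held the core, 5.51% the longer form and 11.5% the TATA sequence, so a core match is common. The core letters also satisfy the hypoxia response motif, in which CGTG follows A or G. CYP1A1 and CYP1A2 lie head to head on chromosome 15, with 22816 bases between the 2 windows, and the sequence between them was not searched. In CYP1A2 the matches to TATAAA and TTTATA overlap. A match describes letters and is not a binding site, and a window without one shows nothing about the receptor.

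Counted reads per library ranged from 24226586 to 26966210. All 8 liver markers examined, among them albumin and apolipoprotein B, had between 541 and 211320 normalized counts in every library, and their summed level was 385757 and 366222 in AMF and 513501 and 496003 in DMSO. They did not all move alike. Albumin had 122923 and 116050 in AMF and 125341 and 117297 in DMSO. HNF4A was higher, with 13071 and 12569 in AMF and 7044 and 7053 in DMSO, and the remaining liver markers were lower in AMF. Of 9 markers of other cell types, 5 stayed below 10 normalized counts in every library and PTPRC has no row in the table. The other 3 were SPP1, with 11770 and 11288 in AMF and 4152 and 4056 in DMSO, PECAM1, with 289 and 277 in AMF and 145 and 185 in DMSO, and CD14. The summed level of these other markers was 12102 and 11596 in AMF and 4318 and 4258 in DMSO. The part of either sum in the results was not tested. Values below are normalized counts, meaning reads divided by a size factor per library, and changes are log2 differences of AMF minus DMSO on the log2(normalized count + 1) scale, tested with limma over 23828 genes with a mean of at least 1. All 8 genes passed that filter, and all 8 also had a mean of at least 1 in the DMSO libraries alone. This scale understates the change of genes with few reads.

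Of the 8 genes, 7 were higher in AMF at an adjusted p under 0.05 and 1, ARNT, did not pass. For comparison, 31.8% of all tested genes passed in either direction and 15.6% passed as higher. When a log2 change of 1 or more was also asked for, 5 of the 8 genes passed, against 7.02% of all tested genes. Both AMF libraries lay above both DMSO libraries in 7 of the 8 and in 33.8% of all tested genes, and the groups did not overlap in 63.4% of all tested genes. Under other settings the count was 7 of 8 with library totals as scaling (32.0% of all genes), with the deposited values (31.7%) and with voom on the recovered reads (32.4%), and 5 of 8 with a pseudocount of 0.1 (28.3%) and with no filter on low values (21.3%), where AHR and CYP1B1 did not pass. The median change over the 8 genes was 3.57, beside 0.04 over all tested genes. By rank of change among the 23828 genes, CYP1A2 was number 1, CYP1A1 number 2, ALDH3A1 number 10, AHRR number 45 and CYP1B1 number 281. TIPARP stood at 4422, AHR at 8901 and ARNT at 13175. These ranks depend on the scale: on the deposited log2 values CYP1A1 changed by 7.13 and CYP1A2, which rests on 2 and 11 DMSO reads, by 6.89, so that the order of the pair turned. In bulk RNA, more transcript per cell and more cells with the transcript cannot be told apart.

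**Figure D1:**
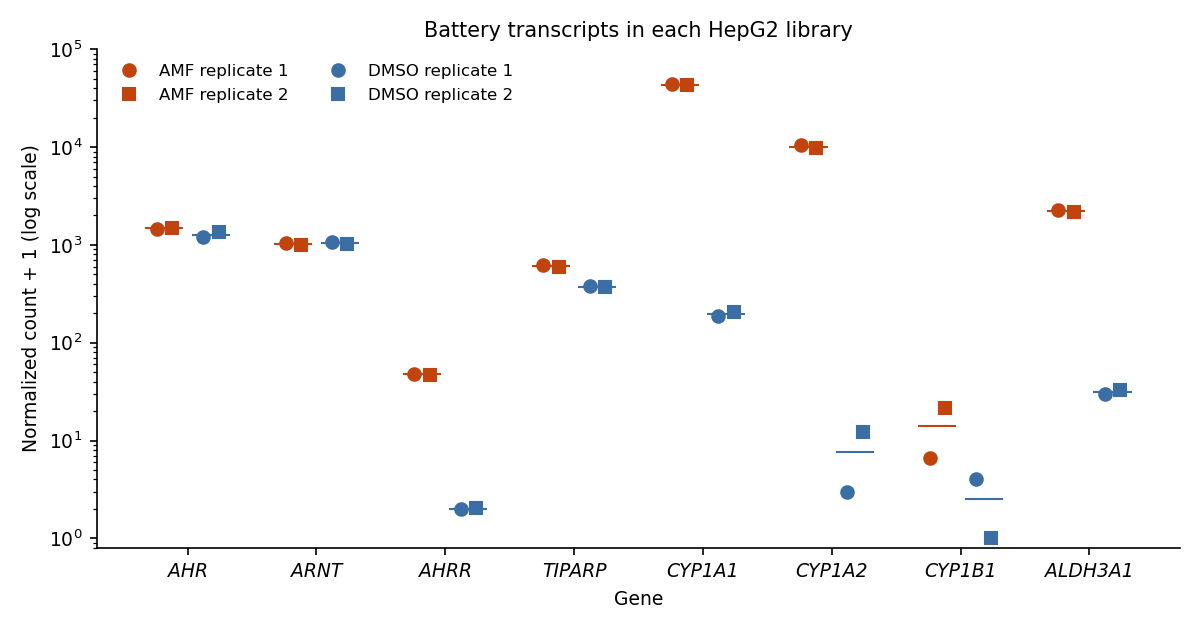
Normalized count + 1 on a log scale (y axis) for the 8 genes (x axis) in AMF libraries (red) and DMSO libraries (blue), circles for replicate 1, squares for replicate 2 and lines for the group mean. CYP1A1, CYP1A2, ALDH3A1 and AHRR are far apart between the groups, whereas AHR and ARNT lie between 1004 and 1495 in all 4 libraries and CYP1B1 has at most 20.6 normalized counts.

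AHR, the ligand-binding receptor, had 1454 and 1495 normalized counts in AMF, against 1193 and 1355 in DMSO. Both AMF libraries were higher, but the gap between the DMSO libraries was 0.18 on the log2 scale, close in size to the fitted change of 0.21 (SE 0.0688, adjusted p = 0.0279). Without DMSO replicate 1 the change was 0.12 and did not pass (adjusted p = 0.199). ARNT, the partner with which the receptor binds DNA and which also serves the hypoxia-inducible factors, had 1043 and 1004 normalized counts in AMF and 1064 and 1030 in DMSO. The groups overlapped, and the change of -0.03 (SE 0.0654, adjusted p = 0.757) did not pass. The ratio of ARNT reads, AMF over DMSO, was 0.979, with a 95% exact binomial interval of 0.921 to 1.04 that covers counting error only. The transcripts of receptor and partner thus stayed within a narrow range, the AHR ratio being 1.16 (interval 1.10 to 1.22).

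AHRR encodes a relative of the receptor that competes with it for ARNT and for DNA. It had 47.4 and 45.3 normalized counts in AMF, from 51 and 44 reads, against 1 read in each DMSO library. Its change was 4.56 (SE 0.51, adjusted p = 7.44e-06), and the ratio of normalized reads was 45.8 with a counting interval of 12.3 to 384. The wide interval comes from the 2 reads in DMSO. TIPARP, also called PARP7, attaches ADP-ribose to the receptor and so limits it. It had 621 and 599 normalized counts in AMF and 378 and 367 in DMSO, a change of 0.71 (SE 0.0853, adjusted p = 1.42e-05) and a ratio of 1.64 (interval 1.496 to 1.80). The libraries of each group agreed closely in TIPARP, with gaps of 0.05 in AMF and 0.04 in DMSO on the log2 scale. Both inhibitors were higher, and they stood at very different levels, AHRR at 1 read per library in DMSO and TIPARP at 378 and 357 reads.

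CYP1A1, the P450 enzyme used most widely as a readout of this receptor, had 44186 and 42856 normalized counts in AMF, against 185 and 206 in DMSO. The change was 7.79 (SE 0.0574, adjusted p = 9.44e-19), and the ratio of normalized reads was 223 (interval 202 to 247). CYP1A2, the P450 enzyme of adult liver that oxidises caffeine, had 10376 and 9846 in AMF, whereas the DMSO libraries had 1.999 and 11.3, from 2 and 11 reads. AMF was far above both DMSO libraries, and the uncertainty lies in DMSO: the change was 10.70 (SE 0.402, adjusted p = 1.43e-10), but 9.68 without DMSO replicate 1 and 11.72 without DMSO replicate 2. The ratio over the group was 1538, with a counting interval of 899 to 2888. ALDH3A1, an aldehyde dehydrogenase that acts on aromatic aldehydes, had 2255 and 2182 normalized counts in AMF and 28.99 and 31.8 in DMSO. Its change was 6.14 (SE 0.111, adjusted p = 8.62e-14), a ratio of 73.1 (interval 56.7 to 95.9).

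CYP1B1, the third P450 of family 1 and better known from tissues outside the liver, was barely detected. It had 6 and 20 reads in AMF, against 3 and 0 in DMSO, where 0 reads allow up to 3.08 normalized counts in DMSO replicate 2. The AMF libraries differed from each other by 1.72 on the log2 scale, and one DMSO library had no read, beside a change of 2.57 (SE 0.827, adjusted p = 0.0275). The ratio of normalized reads was 8.36 with a counting interval of 2.56 to 43.1. The call did not hold when a library was left out: the change was 3.43 and 1.72 without AMF replicates 1 and 2, and 3.57 and 1.58 without DMSO replicates 1 and 2, with adjusted p from 0.11 to 0.476. It also ended with a pseudocount of 0.1 (adjusted p = 0.0993) and with no filter on low values (0.0788).

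**Figure D2:**
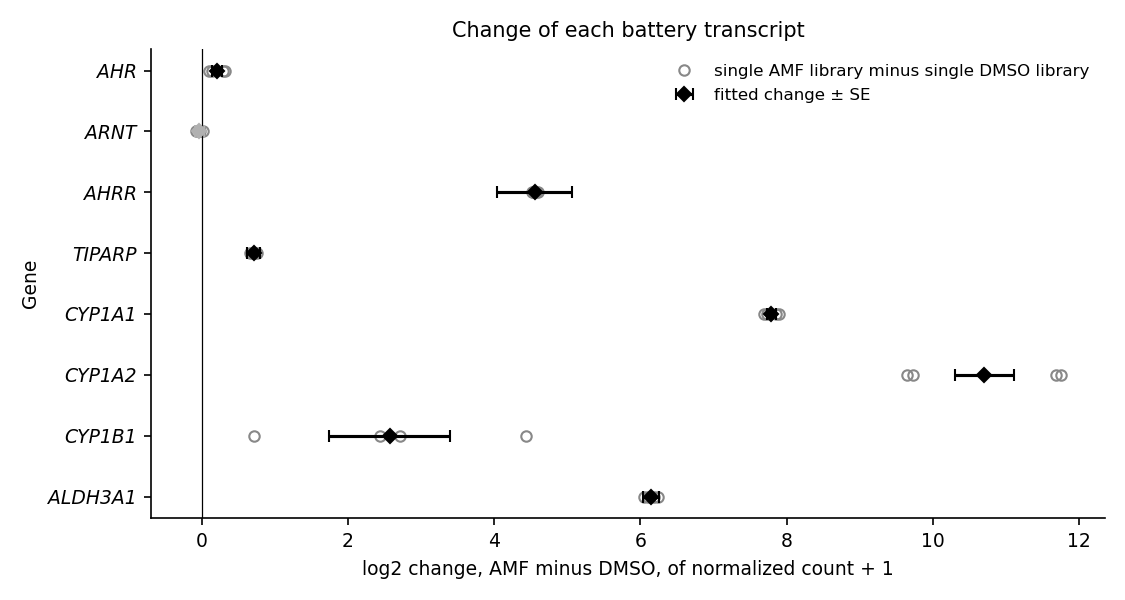
Log2 change of AMF minus DMSO (x axis) for each gene (y axis), with diamonds for the fitted change, bars for its SE, grey for the gene that did not pass, and open circles for each AMF library against each DMSO library. The 4 pairs lie close together for CYP1A1, ALDH3A1 and TIPARP, and spread from 9.65 to 11.76 for CYP1A2 and from 0.72 to 4.43 for CYP1B1.

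Leaving out libraries changed which of these calls held. Without AMF replicate 1 or 2, limma-trend called 0 of the 8 genes and 0 of 23828, which is 0.0% of all genes. At an unadjusted p under 0.05, 5 of the 8 passed in either case, beside 6575 and 6387 of all genes. Voom on the reads recovered from the table called 4 of the 8 without either AMF library, namely TIPARP, CYP1A1, CYP1A2 and ALDH3A1, against 5.79% and 5.52% of all genes. AHRR then had an adjusted p of 0.0568 and 0.0552. Without DMSO replicate 1 limma-trend called 5 of the 8, all but AHR, ARNT and CYP1B1, and without DMSO replicate 2 it called 6, against 14.8% and 14.4% of all genes. Voom called the same number of the 8 in these cases, 5 and 6, against 28.4% and 27.6% of all genes.

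CYP1A1 and CYP1A2 can be set against each other within a library, where library scaling has no effect. The ratio of CYP1A1 to CYP1A2 was 4.26 and 4.35 in AMF, against 92.5 and 18.3 in DMSO. The AMF ratios were nearly equal, and the DMSO ratios, which rest on 2 and 11 CYP1A2 reads, differed widely, with counting intervals of 25.2 to 769 and 10.00 to 37.2. Both AMF ratios were lower than both DMSO ratios, with a mean log2 difference of -3.26. An exact two-sided permutation test over the 4 libraries gave p = 0.333, the smallest that 2 against 2 allows. The longest stretch that their longest GENCODE 29 transcripts share was 40 bases. No source used here gives the read length, and whether reads of one gene were counted for the other was not tested.

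The order of the levels was compared per kilobase of exon, with lengths from GENCODE 29 on another build than the one the submitters name. In AMF the order was CYP1A1, with 14116 normalized counts per kb on average, then CYP1A2 with 3706, ALDH3A1 with 983, ARNT with 207, AHR with 192, TIPARP with 127, AHRR with 7.37 and CYP1B1 with 2.38. In DMSO the order was ARNT with 212, AHR with 166, TIPARP with 77.3, CYP1A1 with 63.5, ALDH3A1 with 13.5, CYP1A2 with 2.44, CYP1B1 with 0.273 and AHRR with 0.161. The partner and the receptor had the highest levels per kb in DMSO, and CYP1A1, CYP1A2 and ALDH3A1 in AMF, where CYP1B1 was last. Neighbours in this order had separate values in the libraries, except for the last places in DMSO, where CYP1B1, at 0.546 and 0, overlapped AHRR, at 0.159 and 0.163, and CYP1A2 rested on few reads. The length used for AHR, 7666 bases, includes 2373 that it shares with AC019117.2. How reads from these bases were counted is not known, so the order of ARNT and AHR is uncertain. Among 21551 genes with a length, CYP1A1 ranked 63 and 64 per kb in the AMF libraries and 9482 and 9295 in the DMSO libraries. The 8 genes together took 0.240% and 0.233% of the counted reads in AMF and 0.0112% and 0.0119% in DMSO. CYP1A1 made up 73.7% and 73.8% of these reads in AMF and 6.48% and 6.87% in DMSO, where AHR was a larger part with 41.8% and 45.1%.

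**Figure D3:**
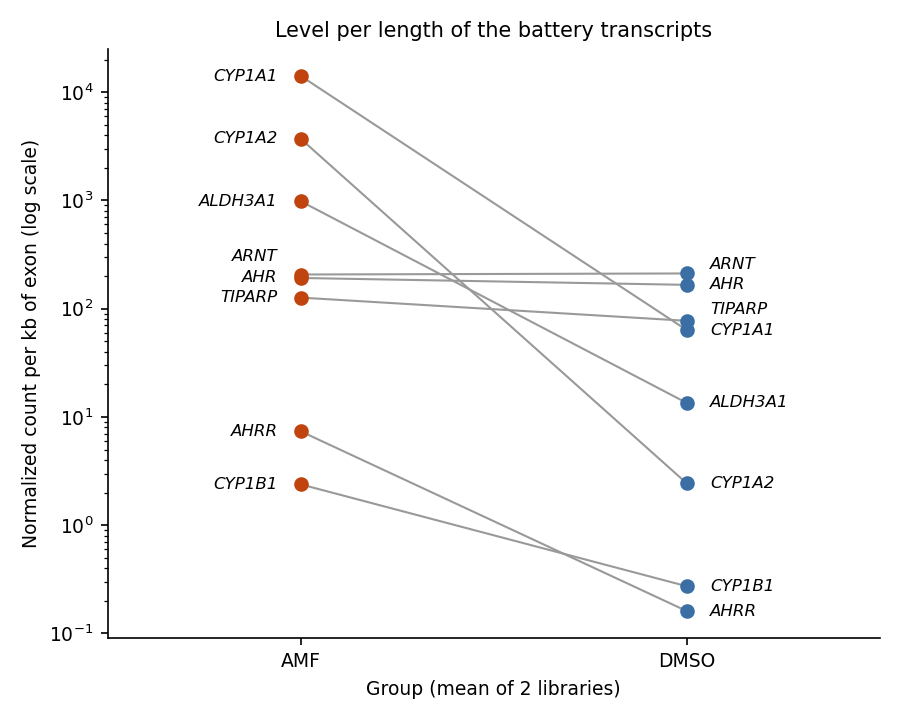
Normalized counts per kb of exon on a log scale (y axis), as means of the 2 AMF libraries (left) and the 2 DMSO libraries (right), with a line for each gene. The lines of the enzymes CYP1A1, CYP1A2 and ALDH3A1 cross those of ARNT, AHR and TIPARP, so that CYP1A1 is at 14116 in AMF and 63.5 in DMSO while ARNT is at 207 in AMF and 212 in DMSO.

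Reads from exon bases that genes share cannot be assigned to one gene, and since the library kit does not keep strand this holds for antisense partners too. In GENCODE 29 the exons of 4 of the 8 genes overlap those of others: AHR shares 2373 of 7666 exon bases with AC019117.2, CYP1B1 shares 596 of 5488 with CYP1B1-AS1, ALDH3A1 shares 98 of 2257 with an antisense RNA, and AHRR shares 45 of 6290 with PDCD6. Of the 50-base stretches in the longest transcript, 33.4% for AHR and 10.2% for CYP1B1 occur in other genes too. AC019117.2 had 3 and 2 reads in AMF and 4 and 2 in DMSO. CYP1B1-AS1 had 7 and 8 reads in AMF and 5 and 1 in DMSO, as few as CYP1B1 itself, and did not pass (adjusted p = 0.206). PDCD6, with 281 and 286 reads in AMF and 250 and 257 in DMSO, was more abundant than AHRR and did not pass (change 0.11, adjusted p = 0.514). TIPARP-AS1, named for its position beside TIPARP, had 21.4 and 27.8 normalized counts in AMF and 22.0 and 23.6 in DMSO and did not pass (0.09, adjusted p = 0.872).

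Genes beside the battery on the chromosome were taken by a rule, as the nearest 2 protein-coding genes on each side in the RefSeq gene table. Of 28 such genes outside the battery, 25 were tested, of which 9 were higher, 4 were lower and 12 did not pass, with a median change of 0.22. Over all tested genes 15.6% passed as higher and 16.2% as lower. Around the CYP1A pair on chromosome 15, EDC3, which activates mRNA decapping, rose by 0.43 (adjusted p = 2.90e-04), the kinase gene CSK by 0.52 (adjusted p = 1.72e-06) and the splicing kinase gene CLK3 by 0.22 (adjusted p = 0.0134). On the same log2 scale CYP1A1 changed by 7.79 and CYP1A2 by 10.70. ALDH3A2, the fatty aldehyde dehydrogenase gene near ALDH3A1 on chromosome 17, had 4631 and 4621 normalized counts in AMF and 4804 and 4739 in DMSO (-0.04, adjusted p = 0.489). SLC47A2, the nearest gene before ALDH3A1, had 17.6 and 25.8 in AMF and 4.998 and 11.3 in DMSO (1.38, adjusted p = 0.0457). Near TIPARP on chromosome 3, KCNAB1 changed by 1.35 (adjusted p = 0.00521), SSR3 by 0.43 (adjusted p = 1.93e-05) and CCNL1 by -0.24 (adjusted p = 0.00629). The others that fell were SETDB1 near ARNT (-0.32), and RMDN2 (-0.79) and ATL2 (-0.15) near CYP1B1. Near AHRR on chromosome 5, the sodium and proton exchanger SLC9A3 had 76.1 and 95.8 in AMF and 22.0 and 18.5 in DMSO, a change of 2.03 (adjusted p = 3.98e-05), and the exocyst gene EXOC3 rose by 0.49. Beside AHR on chromosome 7, AGR2, a disulfide isomerase of mucus-secreting cells, had 601 and 661 in AMF and 49.0 and 38.0 in DMSO, a change of 3.84 (SE 0.152, adjusted p = 2.38e-10) and thus more than that of AHR itself. With voom, 3 and 2 of the 25 passed without AMF replicates 1 and 2, beside 5.79% and 5.52% of all genes.

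**Figure D4:**
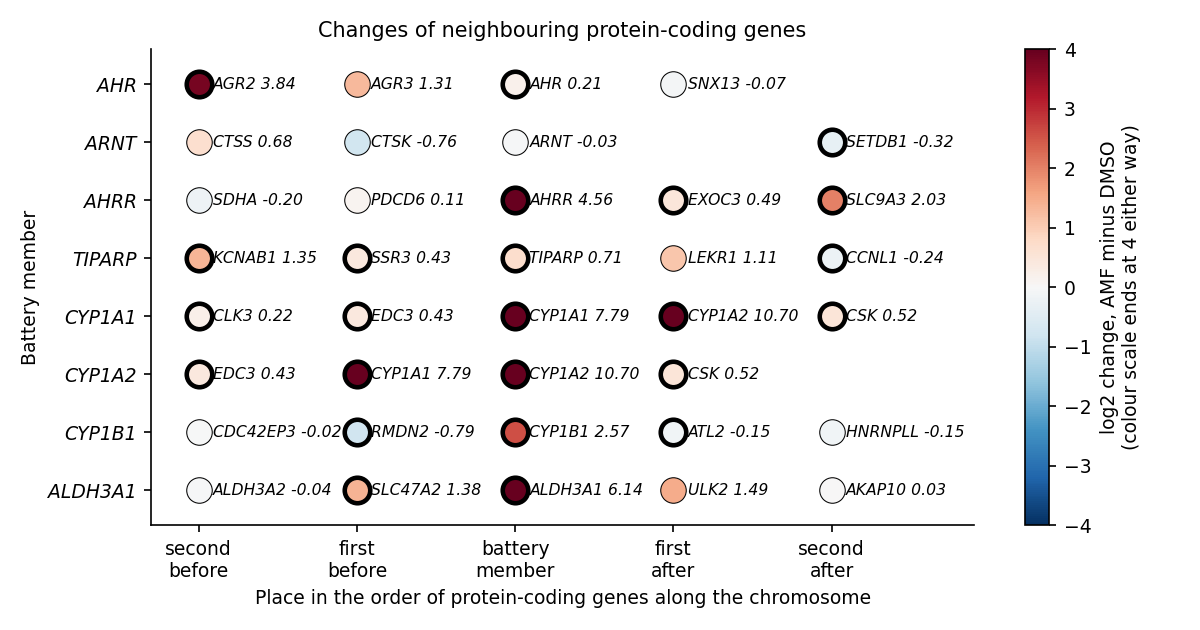
Log2 change of AMF minus DMSO, as colour and number, for each gene of the battery (middle column) and its nearest protein-coding genes in chromosome order (x axis), one row per gene (y axis), with thick outlines at an adjusted p under 0.05 and blanks where a neighbour was not tested. CYP1A1 and CYP1A2 stand at 7.79 and 10.70 between EDC3 at 0.43 and CSK at 0.52, and AGR2 at 3.84 stands near AHR at 0.21.

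Genes that keep the receptor in place or remove it did not share a direction. Of 8 on this list, 3 rose, 3 fell and 2 did not pass, with a median change of 0.08. Beside this and the list counts that follow stand the shares of all tested genes, 15.6% higher and 16.2% lower, and for voom without an AMF library 5.79% and 5.52%. The HSP90 gene HSP90AB1 rose by 0.15 (adjusted p = 0.00228), PTGES3, which encodes p23, by 0.14 (adjusted p = 0.0135) and the ubiquitin ligase gene STUB1 by 0.41 (adjusted p = 6.08e-04). Among those that fell, CUL4B, the scaffold of a ubiquitin ligase to which the receptor can belong, had 1452 and 1652 normalized counts in AMF and 2173 and 2237 in DMSO and fell by 0.51 (adjusted p = 2.60e-05). The export receptor XPO1 fell by 0.12 (adjusted p = 0.0404), a call that ended with library totals as scaling (adjusted p = 0.0754). With voom, 0 and 1 of the 8 passed without AMF replicates 1 and 2.

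Coregulators that work with the receptor on chromatin were mostly lower. Of 13, 12 fell and 1 rose, with a median change of -0.42, where 16.2% of all tested genes passed as lower. All 13 had a mean of at least 10, and in a fit over such genes alone 12 again fell, beside 25.8% lower. NCOA3, a p160 coactivator, had 2717 and 2883 normalized counts in AMF and 4756 and 4813 in DMSO, a change of -0.77 (SE 0.0488, adjusted p = 2.32e-08). CREBBP, a histone acetyltransferase, had 2266 and 2086 in AMF and 3329 and 3514 in DMSO, a change of -0.65 (SE 0.056, adjusted p = 5.32e-07). The gene that rose was RELA, an NF-kB subunit that can bind the receptor, with 0.16 (adjusted p = 0.0275). These coregulators serve many transcription factors. With library totals as scaling 11 fell, SMARCA4 missing the threshold (adjusted p = 0.0544), and with voom 5 of the 13 passed, all lower, without AMF replicate 1 and 5 without AMF replicate 2.

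Other genes of the bHLH-PAS family, to which AHR, AHRR and ARNT belong, went different ways. Of 10 tested, 3 rose, 2 fell and 5 did not pass, with a median of 0.07. HIF1A, which encodes an oxygen-regulated partner of ARNT, had 6924 and 7043 normalized counts in AMF and 4103 and 4318 in DMSO, a change of 0.73 (SE 0.0449, adjusted p = 1.87e-08). Its relative EPAS1 rose by 0.23 (adjusted p = 6.60e-04) and the neuronal factor NPAS1 by 0.99 (adjusted p = 2.54e-05). The clock factor ARNTL, also called BMAL1, had 73.4 and 63.9 in AMF and 130 and 189 in DMSO, a change of -1.18 (SE 0.199, adjusted p = 3.11e-04), and ARNTL2 fell by 0.27 (adjusted p = 0.0192). With limma-trend fewer of the 10, as of all genes, passed when any library was left out. The median change of the 10 then ranged from -0.04 to 0.10.

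Beyond the battery, 16 tested genes that have been reported to respond to the receptor in some cell type gave 9 rises, 2 falls and 5 that did not pass, with a median of 1.09, beside 15.6% higher and 16.2% lower over all tested genes. The gel-forming mucin MUC5AC had 731 and 702 normalized counts in AMF and 17.0 and 10.3 in DMSO, a change of 5.65 (SE 0.213, adjusted p = 1.44e-10). SERPINB2, an inhibitor of plasminogen activation, had 225 and 212 in AMF and 3.999 and 7.19 in DMSO, a change of 5.10 (SE 0.309, adjusted p = 1.60e-08). Of the classical conjugation and oxidation genes, UGT1A1, which glucuronidates bilirubin, had 1297 and 1337 in AMF and 122 and 111 in DMSO (3.49, adjusted p = 5.47e-12), and the quinone reductase gene NQO1 rose by 1.11 (adjusted p = 1.97e-11). The P450 gene CYP2S1 rose by 0.38 (adjusted p = 0.00219), whereas UGT1A6 did not pass (1.08, adjusted p = 0.0542). UGT1A6 had 28.8 and 41.2 in AMF and 11.0 and 22.6 in DMSO, and it passed with library totals as scaling (adjusted p = 0.0455). NFE2L2, which encodes the oxidative stress factor NRF2, fell by 0.29 (adjusted p = 9.74e-05), and the cell cycle inhibitor gene CDKN1B fell by 0.27 (adjusted p = 0.00212). Several of these genes also respond to other factors, and some were known from earlier results of these data when the list was made, so the count is a description. With voom, 7 and 6 of the 16 passed without AMF replicates 1 and 2, all higher, beside 5.79% and 5.52% of all genes in either direction.

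Among 6 genes that pass electrons to cytochromes P450, 4 rose and 2 did not pass, with a median of 0.32. CYB5A, the cytochrome b5 of the endoplasmic reticulum, had 3435 and 3411 normalized counts in AMF and 1646 and 1542 in DMSO, a change of 1.10 (SE 0.054, adjusted p = 1.85e-09). POR, the reductase that serves the microsomal P450 enzymes, rose by 0.28 (adjusted p = 9.31e-05), CYB5B by 0.35 and the mitochondrial FDXR by 0.40. Of 9 other aldehyde dehydrogenases of families 1 and 3, 5 rose and 4 did not pass, with a median of 0.46. ALDH1B1, a mitochondrial enzyme, had 7395 and 7665 in AMF and 2947 and 2584 in DMSO, a change of 1.45 (SE 0.0576, adjusted p = 2.40e-10). ALDH1A3, a retinaldehyde dehydrogenase, had 13.9 and 20.6 in AMF and 0 and 3.08 in DMSO (3.15, adjusted p = 0.00377), ALDH3B1 rose by 0.46, ALDH1L2 by 0.46 and ALDH1A1 by 0.40. With a pseudocount of 0.1, 3 of the 9 passed, beside 28.3% of all genes. With limma-trend fewer of the 9, as of all genes, passed when any library was left out. Their median change then ranged from 0.43 to 0.74. With voom, 1 and 2 of the electron donors and 1 and 1 of the dehydrogenases passed without AMF replicates 1 and 2.

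**Figure D5:**
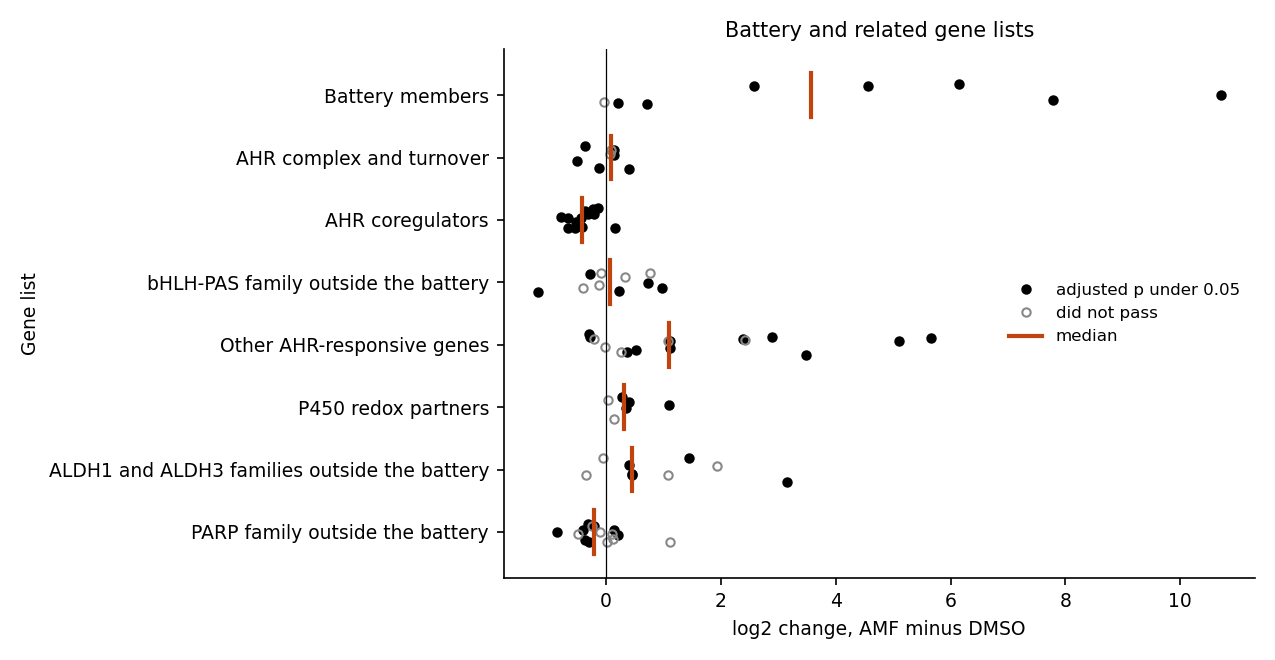
Log2 change of AMF minus DMSO (x axis) for the battery and 7 related gene lists (y axis), with filled points for genes at an adjusted p under 0.05, open points for the others and a red bar for the median. The battery's median of 3.57 compares with 1.09 for the other receptor-responsive genes and -0.42 for the coregulators.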

How the data were processed

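Poly(A)-selected RNA of HepG2 cells was sequenced in 2 AMF and 2 DMSO libraries. The submitters' processing notes list STAR 2.7.0, featureCounts and hg19. No source used here gives the annotation, the filters or the normalization. The authors deposited log2-scale values for 30863 genes, with the same lowest value in every library and the form of a variance-stabilizing transformation. Its inversion gave counts divided by size factors of 1.0769 and 0.9707 (AMF replicates 1 and 2) and 1.0004 and 0.974 (DMSO replicates 1 and 2), and 100% of values were whole reads within 0.01. The table held 0 columns of other samples.

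The unit being log2, limma 3.58.1 in R 4.3.3 (limma-trend, Benjamini-Hochberg over all tested genes) was run on log2(normalized count + 1), with no count model. It was tested on simulated data. Alternatives were a pseudocount of 0.1, other filters, library totals, the deposited values, voom, a replicate block, stricter thresholds and each library left out. Read-ratio intervals are exact binomial at 95%, per-library floors are 3 reads, and both cover counting error only.

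The members and gene lists were chosen with earlier results of these data known. One gene of a list is counted but not reported here by name. Named genes are all members, the 2 genes of each list that rose most and the 2 that fell most among those called at a mean of 10 or more, genes in counts of 5 or fewer, tested neighbours, and the 3 genes nearest in pattern to CYP1A1, TIPARP and AHR. SMARCA4, UGT1A1, UGT1A6, NQO1, CYP2S1 and the overlapping genes were named after their values were seen. Sequences, names and lengths are from RefSeq GRCh38.p14 and GENCODE 29, another build than hg19. Figures were drawn with matplotlib 3.10.9.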

Additional observations from a re-analysis of the deposited data

How the results depend on the processing

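With all libraries, CYP1A1, CYP1A2, ALDH3A1 and AHRR stayed past the threshold under every alternative run, and so did TIPARP except where a log2 change of 1 was also asked for, which AHR missed too. ARNT stayed short of the threshold. AHR (0.21 and 0.21) and CYP1B1 (4.28 and 2.57) lost their calls with a pseudocount of 0.1 and with no filter. Both missed an adjusted p of 0.01, which 5 of the 8 and 23.0% of all genes passed, and CYP1B1 had no value at a mean of at least 10. Over the fits without 1 library, with limma-trend or voom, changes ranged from 0.12 to 0.31 for AHR, -0.06 to -0.01 for ARNT, 4.52 to 4.98 for AHRR, 0.68 to 0.74 for TIPARP, 7.71 to 7.88 for CYP1A1, 9.68 to 11.98 for CYP1A2, 1.58 to 4.41 for CYP1B1 and 6.08 to 6.23 for ALDH3A1. Counts of calls then ranged from 0 to 6776 for all genes, 0 to 6 for the battery and 0 to 52 for the lists, the 0 being limma-trend with 1 AMF library. Of all genes 7578 passed, and 1672 did when a log2 change of 1 or more was also asked for. On the deposited log2 scale, which compresses low values, the change was 1.01 for AHRR, 0.46 for CYP1B1, 4.21 for ALDH3A1, 7.13 for CYP1A1 and 6.89 for CYP1A2, so that CYP1A1 then stood above CYP1A2. With a replicate block 8157 genes (34.2%) and 7 of the 8 passed. Deviations of same-numbered libraries correlated at 0.02 over 11137 genes. With 2 libraries per group this value cannot decide whether same-numbered libraries belong together, and the main fit treats them as unpaired. The difference in the log2 ratio of CYP1A1 to CYP1A2 without 1 library ranged from -4.43 to -2.09. Depth limits CYP1B1 and the DMSO values of AHRR and CYP1A2. A lone library is assumed to vary like the other group.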

Other observations

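Other members of the PARP family, to which TIPARP belongs, gave 2 rises, 6 falls and 7 that did not pass among 15 tested, with a median log2 change of -0.20. Over all tested genes 15.6% passed as higher and 16.2% as lower. PARP16, an enzyme of the endoplasmic reticulum membrane, had 178 and 197 normalized counts in AMF and 336 and 343 in DMSO, a change of -0.85 (adjusted p = 3.77e-05 with limma). The tankyrase gene TNKS fell by 0.39, whereas PARP14 rose by 0.22 and PARP4 by 0.14. With limma-trend fewer of the 15, as of all genes, passed when any library was left out. The median change of the 15 then ranged from -0.19 to -0.07.

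The genes nearest in pattern over the 4 libraries, by Euclidean distance among 15845 genes whose mean reached 10, were found for CYP1A1, TIPARP and AHR. Those nearest to TIPARP were CYSTM1 (distance 0.0192), IQCE (0.0282) and MIF4GD (0.031), with changes of 0.72, 0.72 and 0.72. Those nearest to AHR were IRGQ (0.0152), RUFY2 (0.0163) and REPS1 (0.0207), with changes of 0.20, 0.22 and 0.20. CYP1A1 had no close match: the glutathione transferase gene GSTP1 (0.475), the heat shock gene HSPA6 (0.695) and the lens gene LIM2 (0.812) came nearest. All these are at or near 0 in DMSO, so their position rests on the pseudocount: GSTP1 had 175 and 176 normalized counts in AMF and 0 in both DMSO libraries, HSPA6 146 and 176 in AMF and 0 in both DMSO libraries, and LIM2 245 and 238 in AMF and 0 and 1.03 in DMSO.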
